A study of Homo sapiens with 12 samples.

Results

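The genes described here encode 36 proteins of the actin cytoskeleton and of focal adhesions, listed by name for what their proteins do. Of the 36, 35 were measured by at least 1 probe set annotated to that symbol alone, and FLNA was not analysed here. The array held 19775 genes with such a probe set. A gene was represented by its probe set with the highest mean log2 signal over all arrays, and 34 of the 35 passed the low-value filter that left 16099 genes for testing. The gene that did not pass was CNN1.

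Expression had been measured with Affymetrix arrays in 2 human pancreatic cancer lines, BxPC-3 and AsPC-1, either untreated or given PMA at 1 µM for 4 h after a night in reduced serum. PMA is a phorbol ester that stands in for diacylglycerol and activates protein kinase C. In the submitters' account it is an inducer of invasion, BxPC-3 is the primary and AsPC-1 the metastatic line, and the latter was isolated from ascites. The 12 arrays form 4 groups of 3, with 1 array per cell passage, at passages 8, 10 and 12 of AsPC-1 and 7, 9 and 11 of BxPC-3. PMA was dissolved in DMSO, and what vehicle, if any, the untreated cultures received is not stated in the labels used here. Each side of a comparison between lines is 1 line, so such a difference describes this pair and not primary and metastatic tumours in general.

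Focal adhesions are plaques at which integrins, the receptors for extracellular matrix, are tied to actin filaments inside the cell. Talin and the kindlins bind the integrin tails and switch the receptors on, vinculin, paxillin and zyxin build the plaque, and α-actinins tie the filaments together. Myosin with tropomyosin, caldesmon and the calponins sets tension on those filaments, ezrin, radixin and moesin fasten them to the membrane, and cofilin, profilin, the Arp2/3 complex and Ena/VASP proteins turn them over at the leading edge.

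Values below are MAS5 signals, a linear brightness scaled so that every array has the same trimmed mean, listed in the order of replicates 1, 2 and 3. A difference is a log2 difference of signal plus 3 with its SE from limma, a gene was called at a Benjamini-Hochberg adjusted p under 0.05 over all 16099 genes, and n is 3 arrays per group. The lowest-signal range was marked by the 40th percentile of each array, which lay between 8.18 and 10.2. The first AsPC-1 array after PMA stood apart, with a mean correlation of 0.921 with its own group against 0.945 to 0.978 for the other 11 arrays. ACTB control probes at the 3′ end over those at the 5′ end, a sign of RNA length, gave ratios of 2.56, 2.95 and 4.14 in untreated BxPC-3 and 1.84, 1.99 and 2.02 after PMA, with 1.79 to 2.32 in AsPC-1. All 7 duct epithelial markers (KRT19, KRT7, KRT8, KRT18, EPCAM, CDH1 and MUC1) were above the 40th percentile in every group. Of the 6 smooth muscle markers, DES, MYH11 and LMOD1 read 18.7 or less on every array, ACTG2 read 1.70 to 38.5, ACTA2 49.6 to 84.0 and SYNM 34.3 to 166.

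PMA left most of these genes without a call in either line. In BxPC-3 1 of 34 rose, PFN1, and none fell, where 5.82% of all genes were called, 2.52% higher and 3.3% lower. In AsPC-1 1 of 34 rose, PXN, and none fell, where 1.96% of all genes were called, 1.24% higher and 0.721% lower. The median change was 0.14 over the members and 0.00 over all genes in BxPC-3, and 0.16 against -0.10 in AsPC-1. At an unadjusted limma p under 0.05 the counts were 3 members in BxPC-3 (8.82%, against 20.9% of all genes) and 6 in AsPC-1 (17.6%, against 16.5%). Centring every array on its median would add 0.13 to each change in BxPC-3 and 0.22 in AsPC-1. That shift of the scale is about the size of the member medians. It moves all genes alike and so leaves the gap between members and all genes as it is.

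PXN encodes paxillin, a scaffold of the adhesion plaque on which focal adhesion kinase and vinculin dock. Its signal was 271, 185 and 156 in untreated AsPC-1 and 489, 571 and 502 after PMA. BxPC-3 arrays read 195, 189.9 and 222 without PMA and 216, 293 and 289.9 with it. Every treated AsPC-1 array lay above every untreated array of either line, while the BxPC-3 groups overlapped. The rise in AsPC-1 was 1.37 ± 0.22, or 2.59-fold (limma adjusted p = 0.0073), with all 3 passages higher. The BxPC-3 change of 0.38 ± 0.22 did not pass (limma adjusted p = 0.35), and neither did the difference between the responses, -0.99 ± 0.30 (limma adjusted p = 0.29). The second PXN probe set also read higher after PMA in AsPC-1, by 0.63, and the mean of both gave 1.00 without a call (limma adjusted p = 0.13). A fit of the 6 AsPC-1 arrays alone, which called no gene of the array, left it at an adjusted p of 0.22. Without the array that stood apart the change was 1.42 (limma adjusted p = 4.8e-04).

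PFN1 encodes profilin, which binds actin monomers and hands them to formins and Ena/VASP proteins for filament growth. Its signal was 1706, 1945 and 1051 in untreated BxPC-3 and 3331, 2775 and 2764 after PMA. AsPC-1 arrays read 2041, 1655 and 1449 without PMA and 2733, 1635 and 2126 with it. The BxPC-3 groups were apart, with untreated replicate 3 the lowest of all 12 arrays, and the AsPC-1 groups overlapped. The rise in BxPC-3 was 0.96 ± 0.23, or 1.94-fold (limma adjusted p = 0.028), and the AsPC-1 change of 0.32 ± 0.23 did not pass (limma adjusted p = 0.54). The difference between the responses was 0.64 ± 0.33 (limma adjusted p = 0.62). PFN1 has a single probe set. The call was lost with quantile normalization and without the trend of the variance on the signal (limma adjusted p = 0.064 and 0.078). It also did not hold when any of 5 BxPC-3 arrays was left out (untreated replicates 1 and 3 and all 3 after PMA), with changes from 0.69 to 1.04 and limma adjusted p from 0.064 to 0.13. Untreated replicate 3, without which the change was 0.69, is also the array with the highest ACTB ratio, 4.14, while its GAPDH ratio was 1.12. The part of RNA length in this result was not tested.

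**Figure D1:**
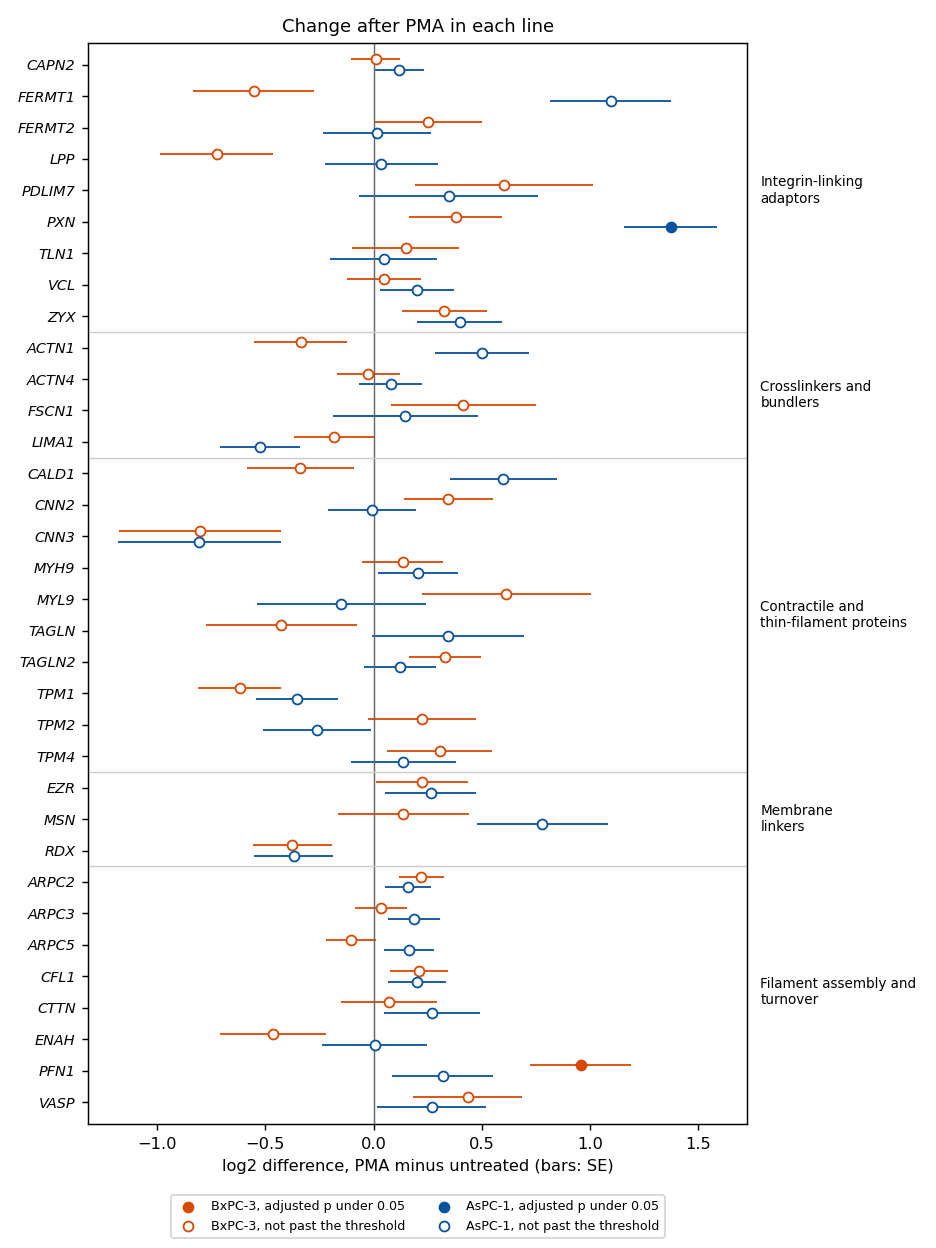
Change after PMA of the 34 tested genes (log2 difference, PMA minus untreated, with SE as bars) in BxPC-3, orange, and AsPC-1, blue, grouped by role; filled points passed an adjusted p of 0.05. The 2 filled points are PXN in AsPC-1 at 1.37 and PFN1 in BxPC-3 at 0.96.

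The sequences upstream of the 2 members called after PMA are shown because factors that set transcription bind there. Below are the 250 bases before the start of PFN1 and of 2 start sites of PXN (RefSeq, GRCh38.p14), with capitals for a match on either strand to CATTCC, the letters that TEAD factors bind.
PFN1, chr17:4948531-4948780, minus strand: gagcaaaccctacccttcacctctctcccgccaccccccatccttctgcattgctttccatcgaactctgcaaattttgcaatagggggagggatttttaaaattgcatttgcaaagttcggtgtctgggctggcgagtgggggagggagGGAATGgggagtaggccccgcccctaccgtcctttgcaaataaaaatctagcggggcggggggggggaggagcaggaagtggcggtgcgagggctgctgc
PXN, chr12:120250164-120250413, minus strand: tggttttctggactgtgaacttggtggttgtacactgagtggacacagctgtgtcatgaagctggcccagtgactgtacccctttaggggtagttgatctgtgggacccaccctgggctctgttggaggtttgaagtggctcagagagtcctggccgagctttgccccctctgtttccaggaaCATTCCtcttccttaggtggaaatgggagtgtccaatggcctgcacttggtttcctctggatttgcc
PXN, chr12:120265731-120265980, minus strand: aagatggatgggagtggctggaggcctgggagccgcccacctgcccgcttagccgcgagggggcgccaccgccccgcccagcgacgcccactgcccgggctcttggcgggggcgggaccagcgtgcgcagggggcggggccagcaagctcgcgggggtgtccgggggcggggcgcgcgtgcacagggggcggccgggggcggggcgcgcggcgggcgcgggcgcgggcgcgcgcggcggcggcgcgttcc
In PFN1 the letters lie on the opposite strand, as GGAATG, and in PXN they lie before the downstream start site and not before the upstream one. CATTCC was in the 300-base window of 9 of the 30 measured members with a RefSeq window (30%) and of 16.7% of 27048 genes. By window, of which a gene can have several, the shares were 20.4% of 54 and 14.0% of 34794. Neither gene held a CArG box or TGANTCA, a pattern with any base in the middle that takes in AP-1 sites and is broader than them. These matches describe the letters in the windows and not binding.

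Among the adaptors that link integrins to actin, PXN was the 1 called gene of 9 in AsPC-1, and none of 9 was called in BxPC-3. FERMT1, which encodes the epithelial kindlin and was chosen for this account after its values were seen, read 1240.4, 2234 and 2746 in untreated AsPC-1 and 3539.8, 4724 and 4455 after PMA. In BxPC-3 it read 2174, 2448 and 2062 untreated and 2063, 1009.6 and 1662 after PMA. The AsPC-1 groups were apart upward and the BxPC-3 groups touched at the other end, with 1 treated array just above the lowest untreated one. Its changes were 1.10 ± 0.28 in AsPC-1 (limma adjusted p = 0.066) and -0.55 ± 0.28 in BxPC-3 (limma adjusted p = 0.29). The difference between the responses was -1.65 ± 0.40 (limma adjusted p = 0.12). With passage as a block, which the shared passage of treated and untreated arrays allows, FERMT1 was called in AsPC-1 (limma adjusted p = 0.017) and for the difference (limma adjusted p = 0.037). All 4 FERMT1 probe sets were higher after PMA in AsPC-1, by 0.89 to 1.29.

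VCL, the vinculin gene, read 1733, 2833 and 2744 in untreated AsPC-1, 2378, 2954 and 2904 after PMA, 2339.7, 2439 and 2221 in untreated BxPC-3 and 2449, 2213 and 2592 after PMA, so all 4 groups overlapped. ZYX encodes zyxin, which brings Ena/VASP proteins to strained filaments. It read 148, 161 and 146 in untreated AsPC-1, 154, 235 and 222 after PMA, 169.6, 157 and 144 in untreated BxPC-3 and 187, 219 and 188 after PMA. The changes of ZYX were 0.40 ± 0.20 in AsPC-1 (limma adjusted p = 0.34) and 0.33 ± 0.20 in BxPC-3 (limma adjusted p = 0.38), and the groups were apart in BxPC-3 alone. LPP, a LIM protein related to zyxin, had a change of -0.72 ± 0.26 in BxPC-3 without a call (limma adjusted p = 0.13), and with passage as a block it was called lower (limma adjusted p = 0.032). Of the 7 other LPP probe sets, 2 shared that sign.

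None of the 4 crosslinkers was called after PMA in either line. ACTN1, which encodes an α-actinin, had changes of 0.50 ± 0.22 in AsPC-1 and -0.34 ± 0.22 in BxPC-3 (limma adjusted p = 0.26 and 0.41). LIMA1, whose product binds along filaments and slows their turnover, had a change of -0.52 ± 0.18 in AsPC-1 (limma adjusted p = 0.17). None of the 10 tested contractile and thin-filament genes was called either, with changes from -0.80 to 0.61 in BxPC-3 and from -0.80 to 0.60 in AsPC-1. CNN3, a calponin gene, stood at the low end in both lines, at -0.80 ± 0.38 and -0.80 ± 0.38 (limma adjusted p = 0.24 and 0.31). The second CNN3 probe set read 0.48 in BxPC-3, the opposite sign. TPM1, a tropomyosin gene, had a change of -0.62 ± 0.19 in BxPC-3 (limma adjusted p = 0.077), which passed with passage as a block (limma adjusted p = 0.046). Of the 4 other TPM1 probe sets that passed the low-value filter, 1 shared that sign. Over all alternatives the TPM1 change ran from -1.17 to -0.10 (limma adjusted p from 0.020 to 0.87).

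The 3 membrane linkers were not called after PMA. EZR, the ezrin gene, read 2542, 3779.8 and 3569 in untreated AsPC-1, 2666, 4819 and 4622 after PMA, 3213, 2550.2 and 2599.5 in untreated BxPC-3 and 3029, 3485 and 3214 after PMA. The groups overlapped in both lines, and the changes were 0.26 ± 0.21 and 0.22 ± 0.21 (limma adjusted p = 0.58 and 0.61). MSN, the moesin gene, had a change of 0.78 ± 0.30 in AsPC-1 (limma adjusted p = 0.21), where the groups were apart. RDX, the radixin gene, had changes of -0.37 ± 0.18 and -0.37 ± 0.18 (limma adjusted p = 0.34 and 0.26). Of the 8 genes of filament assembly, PFN1 was the 1 called in BxPC-3 and none was called in AsPC-1, where their changes lay between 0.00 and 0.32.

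None of the following members had a call after PMA. PDLIM7, a LIM-domain adaptor, had changes of 0.60 ± 0.41 in BxPC-3 and 0.35 ± 0.41 in AsPC-1. The α-actinin gene ACTN4 had -0.02 ± 0.15 and 0.08 ± 0.15, and the fascin gene FSCN1 0.41 ± 0.34 and 0.15 ± 0.34. MYL9, the regulatory light chain of nonmuscle and smooth muscle myosin, had 0.61 ± 0.39 and -0.15 ± 0.39, with the opposite sign on its second probe set in both lines. MYL9 signals were low, at 8.59 to 14.9 in untreated BxPC-3 and 9.96 to 31.9 in untreated AsPC-1. The second probe set averaged 5.78 over all arrays, under the 40th percentile, so the sizes of its differences were not measured. MYH9, the heavy chain of nonmuscle myosin, had 0.13 ± 0.19 and 0.21 ± 0.19, both about the size of the SE. CFL1, whose product cofilin severs filaments, had 0.21 ± 0.14 and 0.20 ± 0.14. CTTN, the gene of cortactin at branch points, had 0.07 ± 0.22 and 0.27 ± 0.22, and VASP, which speeds filament growth, had 0.44 ± 0.25 and 0.27 ± 0.25. Between untreated lines the differences were -0.71 for PDLIM7, -0.75 for MYL9, -0.31 for MYH9, -0.23 for CFL1, 0.04 for CTTN and 0.05 for VASP, none of them called, and the second MYL9 probe set gave 1.56, the opposite sign. With the mean of all its probe sets CTTN was called higher in untreated BxPC-3 (0.69, limma adjusted p = 0.038).

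Treated and untreated arrays did not overlap for 11 members in BxPC-3 (6 higher, 5 lower), where 38.9% of all genes did not (17.0% and 21.9%), and for 7 in AsPC-1 (6 higher, 1 lower), where 14.4% of all genes did not (6.06% and 8.37%). Taken passage by passage, 11 members were higher after PMA in all 3 passages of BxPC-3 (32.4%, against 23.5% of all genes) and 13 in AsPC-1 (38.2%, against 14.7%). The members lower in all 3 passages were 7 in BxPC-3 (20.6%, against 26.8%) and 3 in AsPC-1 (8.82%, against 23.1%). These counts are without the centring given above, which would move members and all other genes of an array alike.

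Without the AsPC-1 array that stood apart, 6 members were called in AsPC-1, where 19.5% of all genes were. PXN, FERMT1, ZYX and EZR were higher and LIMA1 and RDX lower in that fit. FERMT1 had a change of 1.22, ZYX of 0.58 and EZR of 0.54, with limma adjusted p of 0.011, 0.02 and 0.033. LIMA1 was at -0.73 and RDX at -0.58, with limma adjusted p of 0.0048 and 0.0089. In BxPC-3 the same fit called 3 members, PFN1 higher and LPP and TPM1 lower, where 14.9% of all genes were called; all groups share 1 estimate of the spread.

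**Figure D2:**
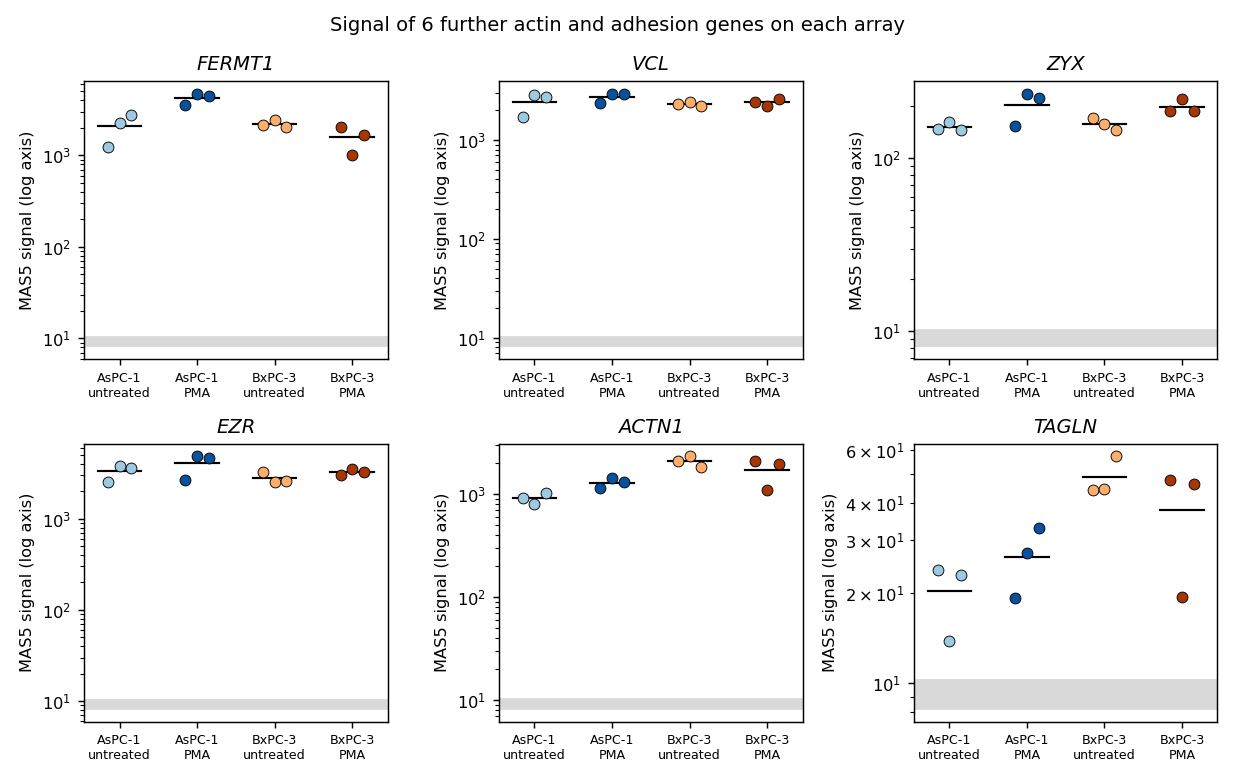
Signal on each array (log axis; points, replicates 1 to 3 from left to right; line, group mean; grey band, range of the arrays' 40th percentiles) for FERMT1, VCL, ZYX, EZR, ACTN1 and TAGLN. In the FERMT1 panel the treated AsPC-1 arrays lie above all untreated ones, and the first treated AsPC-1 array is the lowest of its group for VCL, ZYX and EZR.

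No member passed for the difference between the 2 PMA responses, where 0.491% of all genes were called with limma, 0.317% higher and 0.174% lower, and 4 members had an unadjusted p under 0.05 (11.8%, against 8.91% of all genes). The median of the difference, BxPC-3 minus AsPC-1, was -0.06 over the members and 0.07 over all genes. The range over members was -1.65, for FERMT1, to 0.76, for MYL9.

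More members were called between the lines than after PMA in either line. In untreated cells 15 of 34 members were called, 10 higher and 5 lower in BxPC-3, where 32.4% of all genes were called, 16.8% higher and 15.6% lower. After PMA 15 of 34 were called, 8 higher and 7 lower, where 33.5% of all genes were called, 18.3% higher and 15.2% lower. The arrays of the lines did not overlap for 16 members untreated, 11 higher and 5 lower in BxPC-3, where 50.6% of all genes did not (25.1% and 25.6%). After PMA they did not overlap for 17, 8 higher and 9 lower, where 43.4% of all genes did not (22.9% and 20.5%). The median difference, BxPC-3 minus AsPC-1, was 0.04 over the members and -0.08 over all genes untreated, and -0.06 and 0.03 after PMA. The lists share 11 genes, 73.3% of each, all in the same direction: TLN1, FERMT2, ACTN4, FSCN1, TPM2, CALD1, CNN2, CNN3, RDX, ARPC3 and ARPC5.

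CALD1 encodes caldesmon, which binds actin, tropomyosin and myosin and holds back contraction. Its signal was 2223, 2723 and 2230.2 in untreated BxPC-3 and 2306, 1432 and 2018 after PMA. AsPC-1 arrays read 0.535, 0.276 and 1.15 without PMA and 2.12, 1.54 and 4.20 with it, under the 40th percentile on every array. Set against that percentile, CALD1 was at least 258-fold higher in untreated BxPC-3 and at least 209-fold higher after PMA. The difference was 9.36 ± 0.25 untreated and 8.42 ± 0.25 after PMA on the log2 scale, a size that depends on the 3 added to each signal (limma adjusted p = 4.5e-11 and 8.0e-11). CALD1 has 11 probe sets, and 9 of the other 10 that passed the filter on low values had the same direction in untreated cells. Averaged over all of them the untreated difference was 3.08. In bulk RNA, fewer cells that hold a transcript and less of it per cell cannot be told apart.

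FERMT2, which encodes the kindlin typical of mesenchymal cells, showed the same split between lines. Its signal was 409.9, 364 and 308 in untreated BxPC-3 and 525, 329 and 449.6 after PMA. AsPC-1 arrays read 0.844, 1.05 and 0.683 without PMA and 0.816, 1.34 and 0.579 with it, again under the 40th percentile throughout. FERMT2 was at least 38.8-fold higher in untreated BxPC-3 and at least 47.3-fold higher after PMA (limma adjusted p = 4.3e-10 and 3.3e-10). Both other FERMT2 probe sets had the same direction.

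CNN3, the gene of acidic calponin, read 1165, 1088 and 1586 in untreated BxPC-3 and 871, 616 and 705 after PMA. In AsPC-1 it read 20.3, 18.3 and 55.4 untreated and 10.7, 25.3 and 11.1 after PMA. Every BxPC-3 array lay far above every AsPC-1 array. The difference was 5.36 ± 0.38 untreated, or 41.2-fold, and 5.37 ± 0.38 after PMA (limma adjusted p = 1.4e-07 and 1.4e-07). CNN2, a second calponin gene, read 509.7, 542 and 414 in untreated BxPC-3, 691, 605 and 563 after PMA, 287, 205 and 184 in untreated AsPC-1 and 237, 245 and 184 after PMA. It was higher in BxPC-3 by 1.12 ± 0.20 untreated and 1.47 ± 0.20 after PMA (limma adjusted p = 7.7e-04 and 8.1e-05). CNN2 has a single probe set, whose name is marked for sequence shared between transcripts, so no other probe set could be set beside it.

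TPM2 encodes a tropomyosin, a coiled coil that lies along actin and gates myosin, and it went the other way. Its signal was 2031, 1279 and 1458 in untreated AsPC-1 and 1246, 1280.3 and 1374 after PMA. BxPC-3 arrays read 179, 140.1 and 119 without PMA and 251, 131 and 145 with it. All AsPC-1 arrays lay above all BxPC-3 arrays. TPM2 was 10.6-fold lower in untreated BxPC-3, a difference of -3.41 ± 0.25, and 7.59-fold lower after PMA (limma adjusted p = 2.1e-07 and 9.3e-07). The other tropomyosins, TPM1 and TPM4, had differences of 0.41 and 0.06 without a call (limma adjusted p = 0.12 and 0.89). After PMA the TPM1 difference was 0.14 ± 0.19, while another, dimmer TPM1 probe set, whose name lacks the marks for sequence shared between transcripts, was called lower in BxPC-3 (limma adjusted p = 0.049). That probe set read a mean of 1.85 in treated BxPC-3, under the 40th percentile, against 12.4 in AsPC-1, so the size of its difference was not measured.

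**Figure D3:**
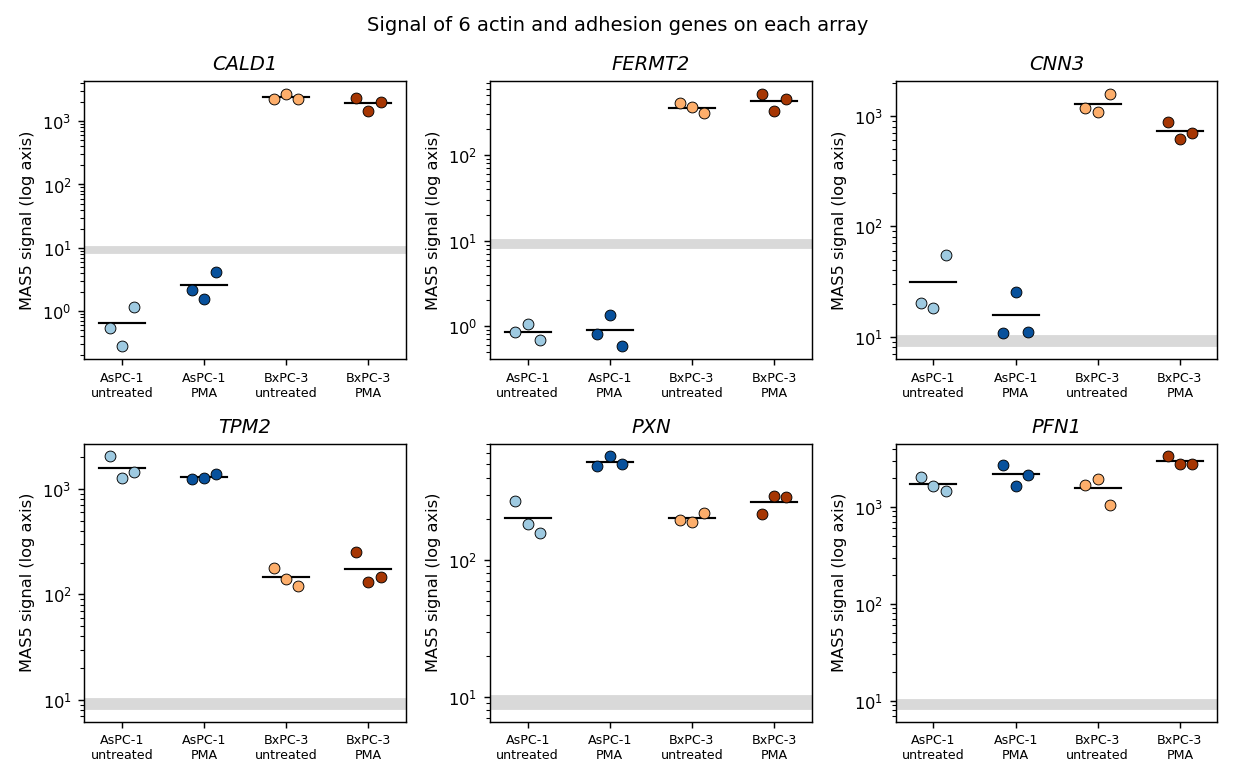
Signal on each array (log axis; points, replicates 1 to 3 from left to right; line, group mean; grey band, range of the arrays' 40th percentiles, 8.18 to 10.2) for CALD1, FERMT2, CNN3, TPM2, PXN and PFN1. CALD1 and FERMT2 lie under the band in AsPC-1 and above 300 in BxPC-3, TPM2 is higher in AsPC-1, and PXN is highest in treated AsPC-1.

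The transgelins, small relatives of calponin that stiffen actin bundles, differed in opposite directions. TAGLN read 44.2, 44.6 and 57.1 in untreated BxPC-3, 47.6, 19.3 and 46.4 after PMA, 23.8, 13.9 and 23.0 in untreated AsPC-1 and 19.2, 27.1 and 32.9 after PMA. It was higher in untreated BxPC-3 by 1.17 ± 0.35 (limma adjusted p = 0.02) and did not pass after PMA, where the groups overlapped, at 0.41 ± 0.35 (limma adjusted p = 0.42). The 1 TAGLN probe set of 3 that lacks the marks for shared sequence gave -0.21 in untreated cells (limma adjusted p = 0.67), and the mean of all of them did not pass (0.71, limma adjusted p = 0.061). TAGLN2 read 1099, 1169.8 and 789.7 in untreated BxPC-3, 1310.2, 1127 and 1372 after PMA, 1774, 1475 and 1319 in untreated AsPC-1 and 1667, 1622 and 1646 after PMA. It was lower in untreated BxPC-3, with a difference of -0.59 ± 0.17 (limma adjusted p = 0.014), and after PMA the difference of -0.38 ± 0.17 did not pass (limma adjusted p = 0.099). Either call was lost without BxPC-3 untreated replicate 3, TAGLN also without AsPC-1 untreated replicate 2 and TAGLN2 without AsPC-1 untreated replicate 1, with limma adjusted p from 0.053 to 0.084. CNN1, the smooth muscle calponin, read between 1.17 and 16.2 on all 12 arrays and was not tested.

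CALD1, TAGLN and the calponins are also smooth muscle and fibroblast genes, so marker lists of those cells were read beside them. The 6 smooth muscle markers summed to 128 to 171 in AsPC-1 and 229 to 284 in BxPC-3, where SYNM made up 99.2 to 166. The 8 fibroblast markers summed to 1364 to 3436 in AsPC-1, nearly all of it LUM, and to 154 to 262 in BxPC-3. COL3A1 read 39.2 to 57.7 in BxPC-3 and at most 11.2 in AsPC-1, while COL1A2, PDGFRB and PDGFRA read at most 13.2 on every array. None was at 0. The part of such cells in these differences was not tested.

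Among the crosslinkers 3 of 4 were called higher in BxPC-3 in untreated cells, where 16.8% of all genes were. ACTN1 read 2131, 2339 and 1823 in untreated BxPC-3, 2107, 1093 and 1955 after PMA, 929, 805 and 1020.5 in untreated AsPC-1 and 1159, 1428 and 1309.8 after PMA. Untreated, the lines were apart and ACTN1 was higher in BxPC-3 by 1.19 ± 0.22, 2.28-fold (limma adjusted p = 7.3e-04), as on 2 of 3 other probe sets by sign. After PMA they overlapped through BxPC-3 replicate 2, and the difference of 0.35 ± 0.22 did not pass (limma adjusted p = 0.24), while without that array it was 0.65 (limma adjusted p = 0.01). ACTN4, the other α-actinin gene, was higher by 0.82 ± 0.15 untreated and 0.72 ± 0.15 after PMA (limma adjusted p = 6.2e-04 and 0.0017). FSCN1, which encodes the filopodial bundler fascin, was higher by 1.01 ± 0.34 and 1.27 ± 0.34 (limma adjusted p = 0.034 and 0.0096). The untreated FSCN1 call was lost without replicate 1 or 2 of either untreated group, with limma adjusted p from 0.062 to 0.14, and with median centring, quantile normalization or no trend (0.085, 0.053 and 0.058). LIMA1 had a difference of 0.17 untreated and was called higher after PMA, by 0.52 ± 0.18 (limma adjusted p = 0.046), a call that was lost with passage as a block (limma adjusted p = 0.055) and in 9 of 12 fits that left out 1 array (0.33 to 0.57, limma adjusted p from 0.052 to 0.20). It held without AsPC-1 untreated replicate 1 or 2 or AsPC-1 PMA replicate 1, and 1 of 2 other LIMA1 probe sets shared its sign. The mean of all LIMA1 probe sets gave 0.19, limma adjusted p = 0.47, and 5 further alternatives also ended the call (limma adjusted p from 0.053 to 0.14).

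Of the 9 adaptors, 2 were called in untreated cells (22.2%, against 32.4% of all genes), FERMT2 higher and TLN1 lower in BxPC-3. After PMA 5 were called (55.6%, against 33.5%), FERMT2 higher and TLN1, FERMT1, LPP and PXN lower. TLN1, the gene of talin, read 41.1, 35.6 and 37.9 in untreated BxPC-3, 50.9, 37.9 and 39.96 after PMA, 114, 80.0 and 68.7 in untreated AsPC-1 and 105, 90.0 and 73.4 after PMA. Every BxPC-3 array was below every AsPC-1 array. TLN1 was 2.15-fold lower in untreated BxPC-3, a difference of -1.11 ± 0.25, and 2.01-fold lower after PMA (limma adjusted p = 0.0034 and 0.0062). Neither call held on a dimmer TLN1 probe set without the marks for shared sequence (untreated -0.59, limma adjusted p = 0.43, and after PMA -1.10, limma adjusted p = 0.12). FERMT1 and PXN did not differ past the threshold in untreated cells, at 0.18 ± 0.28 and 0.02 ± 0.22, and were lower in BxPC-3 after PMA, with differences of -1.47 ± 0.28 and -0.97 ± 0.22 (limma adjusted p = 0.001 and 0.0032). All 3 other FERMT1 probe sets shared that direction after PMA, but in untreated cells 0 of these 3 shared the sign of 0.18. They thus read lower in BxPC-3 in both states. The second PXN probe set did not share the direction after PMA, at 0.05. The mean of both PXN probe sets gave no call (-0.46, limma adjusted p = 0.27). LPP was lower after PMA, with a difference of -0.84 ± 0.26 (limma adjusted p = 0.023), a call lost without AsPC-1 PMA replicate 1 or BxPC-3 PMA replicate 2 or 3 (-0.85 to -0.56, limma adjusted p from 0.057 to 0.091), and 4 of its 7 other probe sets had the same sign. The mean of all LPP probe sets was close to 0 (-0.09, limma adjusted p = 0.79), and the 6 treated arrays alone gave a limma adjusted p of 0.051. VCL and ZYX had differences between -0.18 and 0.05 in both states, none past the threshold.

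RDX was the 1 of 3 membrane linkers called on the probe sets used here, higher in BxPC-3 by 0.91 ± 0.18 untreated and 0.90 ± 0.18 after PMA (limma adjusted p = 0.0017 and 0.0017). EZR had differences of -0.23 ± 0.21 and -0.27 ± 0.21 without a call. All 4 other EZR probe sets shared that sign, and the one without the marks for shared sequence was called lower in BxPC-3, untreated (-0.99, limma adjusted p = 0.026) and after PMA (-1.27, limma adjusted p = 0.0059). With the mean of all its probe sets MSN was called lower in treated BxPC-3 than in treated AsPC-1 (-0.63, limma adjusted p = 0.036). That mean takes in a second MSN probe set that averaged 2.73 over all arrays and did not pass the low-value filter. The size of this difference was therefore not measured. In the group of filament assembly, the Arp2/3 subunit genes ARPC3 and ARPC5 were lower in BxPC-3. ARPC3 read 2308, 2544 and 2423 in untreated BxPC-3, 2783, 2138 and 2568 after PMA, 3447, 3714 and 3460.1 in untreated AsPC-1 and 4442, 3918 and 3758 after PMA. The lines were apart, by -0.55 ± 0.12 untreated and -0.70 ± 0.12 after PMA (limma adjusted p = 0.0029 and 4.4e-04). ARPC5 read 1970.0, 2032 and 1929 in untreated BxPC-3, 1887, 1759 and 1871 after PMA, 2219.8, 2829 and 2713 in untreated AsPC-1 and 2893, 2817 and 2940.2 after PMA. The lines were apart here too, by -0.38 ± 0.11 and -0.65 ± 0.11 (limma adjusted p = 0.02 and 5.7e-04). The untreated ARPC5 call was lost without AsPC-1 untreated replicate 2 or 3 or BxPC-3 untreated replicate 1 or 3 (limma adjusted p from 0.057 to 0.090), and with median centring or no trend (0.1 and 0.096). ARPC2, another subunit gene, had a difference of -0.15 ± 0.11 without a call. ENAH, an Ena/VASP gene, was higher in untreated BxPC-3 by 0.68 ± 0.24 (limma adjusted p = 0.047), and held in 4 of 12 fits that left out 1 array, those without AsPC-1 untreated replicate 3, AsPC-1 PMA replicate 1, BxPC-3 untreated replicate 2 or BxPC-3 PMA replicate 3. The other 8 fits gave 0.50 to 0.72 (limma adjusted p from 0.053 to 0.19), and 3 of 5 other ENAH probe sets shared the sign. The mean of all ENAH probe sets was near 0 (0.06, limma adjusted p = 0.83), and 4 further alternatives ended the call (limma adjusted p from 0.054 to 0.12).

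**Figure D4:**
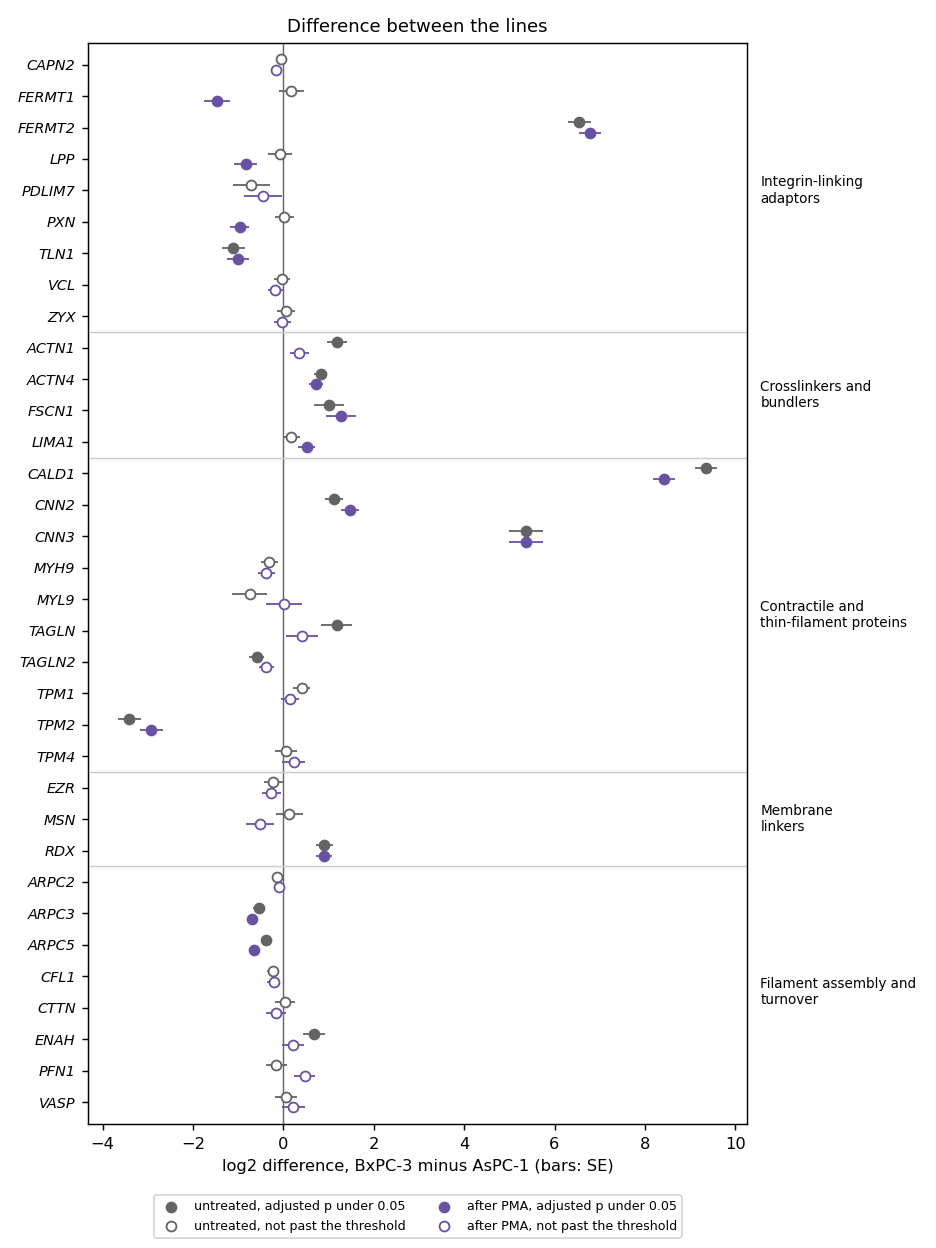
Difference between the lines for the 34 tested genes (log2 difference, BxPC-3 minus AsPC-1, with SE as bars), untreated in grey and after PMA in purple, grouped by role; filled points passed an adjusted p of 0.05. CALD1, FERMT2 and CNN3 lie at 5.36 to 9.36 and TPM2 at -3.41 and -2.92, and the other genes lie within 1.5 of 0.

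Many genes of this kind are known targets of serum response factor, which binds the CArG box, the letters CC, 6 bases of A or T, and GG. A search of the 250 bases before to 50 after each RefSeq start site, on both strands, found a CArG box in 5 of 30 measured members with a window (16.7%), against 1.61% of 27048 genes. By window the shares were 9.26% of 54 and 1.30% of 34794. The 5 stretches of 40 bases that hold it are shown because this is the letter pattern most tied to such genes (RefSeq, GRCh38.p14), with the box in capitals, written along the gene's strand.
ACTN1, chr14:68977713-68977752, minus strand: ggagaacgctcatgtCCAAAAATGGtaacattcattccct
CAPN2, chr1:223701484-223701523, plus strand: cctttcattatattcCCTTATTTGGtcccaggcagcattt
CNN2, chr19:1026504-1026543, plus strand: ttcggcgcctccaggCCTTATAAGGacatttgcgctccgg
LPP, chr3:188212514-188212553, plus strand: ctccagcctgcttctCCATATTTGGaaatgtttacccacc
TPM4, chr19:16067350-16067389, plus strand: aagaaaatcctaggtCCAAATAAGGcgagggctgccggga
The boxes start 89 to 183 bases before the start site. None of these 5 genes was called after PMA. CAPN2, the gene of a calcium-dependent protease that cleaves talin, had changes of 0.01 ± 0.11 in BxPC-3 and 0.12 ± 0.11 in AsPC-1, and TPM4 of 0.31 ± 0.24 and 0.14 ± 0.24. Between untreated lines, ACTN1 and CNN2 were higher in BxPC-3 and the other three, CAPN2, LPP and TPM4, had differences of -0.06, -0.08 and 0.06 without a call. TGANTCA was in the windows of 7 of the 30 (23.3%), against 9.40% of all genes, and by window in 20.4% against 7.73%. Its middle base is free, so these matches are not all AP-1 sites. SRF itself had changes of -0.27 ± 0.34 in BxPC-3 and 0.14 ± 0.34 in AsPC-1 (limma adjusted p = 0.72 and 0.89).

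A separate list of 108 other genes of actin and adhesion control was read in the same fit, of which 97 were measured and tested. After PMA 7 of them were called in BxPC-3, 6 higher and 1 lower (7.22%, against 5.82% of all genes). In AsPC-1 4 were called, 2 higher and 2 lower (4.12%, against 1.96%). The median change was 0.05 in BxPC-3 and 0.02 in AsPC-1. ACTB, the cytoplasmic β-actin gene, had changes of 0.35 ± 0.12 and 0.24 ± 0.12 without a call (limma adjusted p = 0.11 and 0.35). Between the lines 51 of the 97 were called untreated, 22 higher and 29 lower in BxPC-3, and 51 after PMA, 24 higher and 27 lower. Each count is 52.6% of the list, against 32.4% of all genes untreated and 33.5% after PMA.

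The called genes of this list in BxPC-3 were MARCKSL1, ABI1, CDC42EP1, RND1, RND3 and SPTBN1, higher, and ARHGAP29, lower. MARCKSL1, whose product is a protein kinase C substrate that binds actin at the membrane, read 92.0, 114 and 99.3 untreated and 675, 669 and 531 after PMA. In AsPC-1 it read 1157, 549.7 and 541 untreated and 978, 594 and 583 after PMA. The treated BxPC-3 arrays lay close to the lower AsPC-1 arrays, and the untreated BxPC-3 arrays lay far below all others. The rise was 2.58 ± 0.28 (limma adjusted p = 2.9e-04), and the AsPC-1 change was -0.01 ± 0.28 (limma adjusted p = 0.99).

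ABI1, a subunit gene of the WAVE complex that drives Arp2/3, read 476, 560.4 and 475 in untreated BxPC-3 and 1621, 1809 and 1596 after PMA, 794, 677 and 663 in untreated AsPC-1 and 728, 910.5 and 977 after PMA. The treated BxPC-3 arrays were above all others, and the rise was 1.73 ± 0.15 (limma adjusted p = 5.2e-05), against 0.29 ± 0.15 without a call in AsPC-1 (limma adjusted p = 0.38). With probe sets that lack the marks for shared sequence the BxPC-3 rise was not called (1.56, limma adjusted p = 0.085). CDC42EP1, an effector of CDC42, read 19.2, 12.7 and 11.5 in untreated BxPC-3 and 54.9, 77.7 and 61.8 after PMA, 71.3, 50.1 and 37.3 in untreated AsPC-1 and 45.8, 31.2 and 26.2 after PMA. It rose in BxPC-3 by 1.97 ± 0.31 (limma adjusted p = 0.0026), and its AsPC-1 groups overlapped, with a change of -0.57 ± 0.31 (limma adjusted p = 0.39). RND1 and RND3 rose by 2.32 ± 0.57 and 1.03 ± 0.25, and SPTBN1, a β-spectrin gene, by 0.46 ± 0.11 (limma adjusted p = 0.032, 0.03 and 0.032). ARHGAP29 fell by 0.96 ± 0.20 (limma adjusted p = 0.013). The AsPC-1 changes of these genes did not pass, at 1.94 ± 0.57 for RND1, 0.68 ± 0.25 for RND3, -0.20 ± 0.11 for SPTBN1 and -0.08 ± 0.20 for ARHGAP29 (limma adjusted p = 0.11, 0.19, 0.42 and 0.88). RND1 read a mean of 10.6 in untreated AsPC-1, with 2 of 3 arrays under the 40th percentile, so the size of its change there was not measured. The difference between the responses was called for none of these 4 genes. The calls of RND1 and RND3 were lost without any 1 of the 6 BxPC-3 arrays (limma adjusted p from 0.068 to 0.15). SPTBN1 lost its call without BxPC-3 untreated replicates 1 or 3 or any treated one (0.092 to 0.14), and ARHGAP29 without untreated replicate 3 or treated replicates 1 or 2 (0.052 to 0.081). The mean of all probe sets gave no call for SPTBN1 (0.09, limma adjusted p = 0.85) or ARHGAP29 (-0.33, limma adjusted p = 0.55). The SPTBN1 probe set without the marks for shared sequence gave 0.03, limma adjusted p = 0.97. Without the trend RND1, RND3 and SPTBN1 were not called (limma adjusted p = 0.058, 0.072 and 0.15), nor were RND3 and SPTBN1 with quantile normalization (0.054 and 0.17), ARHGAP29 with median centring (0.078) or SPTBN1 with no filter (0.051).

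The called genes of this list in AsPC-1 were RHOB and RHOC, higher, and RHOU and KANK1, lower. RHOB, whose product acts on endosomes and junctions, read 116, 255 and 314 untreated and 374, 1001 and 926 after PMA, and RHOC read 993, 938 and 1046 and 1426, 1500.1 and 1563. Both sets of groups were apart, and they rose by 1.73 ± 0.39 and 0.59 ± 0.11 (limma adjusted p = 0.042 and 0.023). RHOU, an atypical relative of CDC42, read 1053, 847 and 932 untreated and 567, 131 and 151 after PMA, and KANK1, which binds talin at the rim of adhesions, read 40.9, 70.7 and 98.8 and 34.9, 8.30 and 11.9. Both were lower on every treated array and fell by 2.05 ± 0.47 and 1.89 ± 0.43 (limma adjusted p = 0.045 and 0.043). Treated replicate 2 of KANK1 was under its 40th percentile of 9.68 and replicate 3 close above its 9.17, so the size of that fall is uncertain. In BxPC-3 the groups of all 4 genes were apart in the same directions without a call, at 0.51 ± 0.39 for RHOB, 0.26 ± 0.11 for RHOC, -1.59 ± 0.47 for RHOU and -1.38 ± 0.43 for KANK1 (limma adjusted p = 0.51, 0.22, 0.069 and 0.08). RHOU read a mean of 6.81 in treated BxPC-3, with 2 of 3 arrays under the 40th percentile, so the size of that change was not measured. The difference between the responses was called for none of the 4. Leaving out 1 array ended the calls of RHOB and RHOU in 11 of 12 fits, all but that without AsPC-1 PMA replicate 1, with limma adjusted p from 0.059 to 0.21. KANK1 lost its call in 10 of 12, all but those without AsPC-1 untreated replicate 1 or AsPC-1 PMA replicate 1 (0.058 to 0.19). RHOC lost its call in 5, without AsPC-1 untreated or PMA replicates 2 or 3 or BxPC-3 PMA replicate 3 (0.050 to 0.12), and its mean over all probe sets read -0.42 (limma adjusted p = 0.48). The mean of all probe sets gave no call for RHOB (0.57, limma adjusted p = 0.38), RHOU (-1.99, limma adjusted p = 0.063) or KANK1 (-0.53, limma adjusted p = 0.33) either, and the KANK1 probe set without the marks for shared sequence gave -0.14, limma adjusted p = 0.88. None of the 4 was called without the trend (limma adjusted p from 0.088 to 0.1) or with the 6 AsPC-1 arrays alone, and RHOB, RHOU and KANK1 were not called with no filter on low values (0.053 to 0.06).

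**Figure D5:**
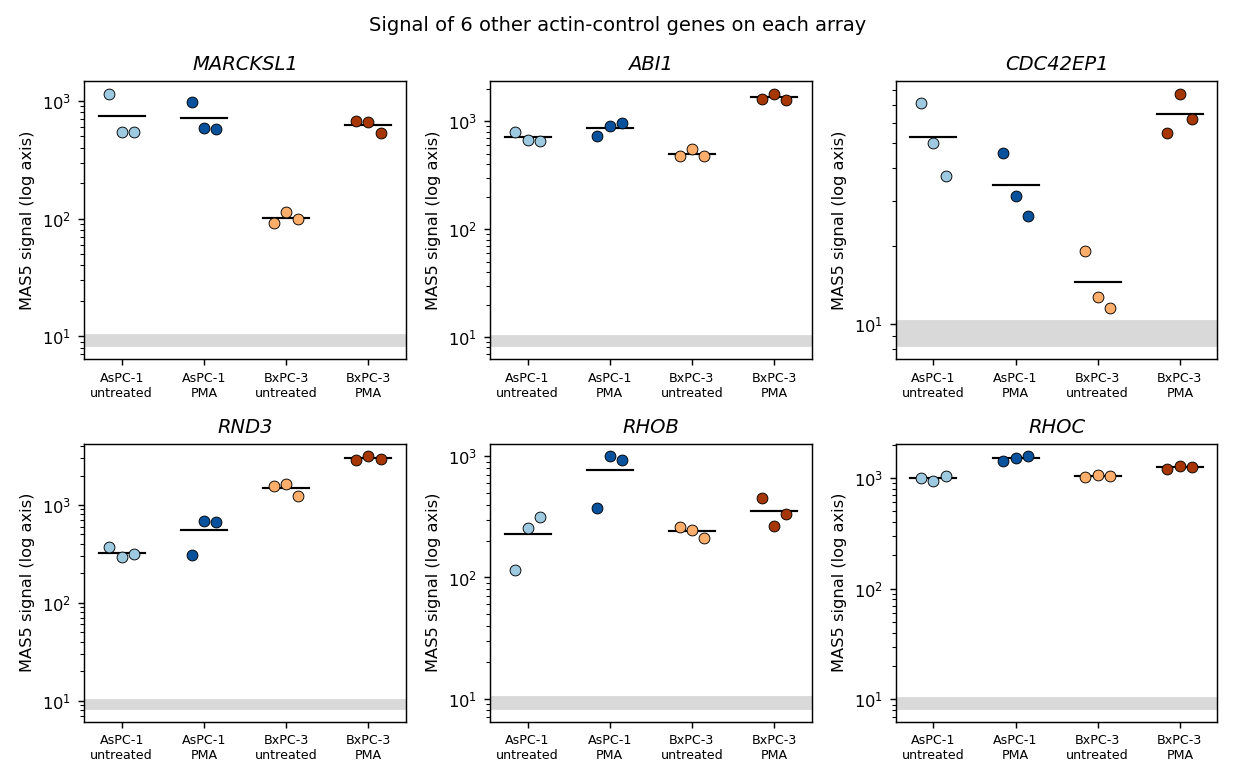
Signal on each array (log axis; points, replicates 1 to 3 from left to right; line, group mean; grey band, range of the arrays' 40th percentiles) for MARCKSL1, ABI1, CDC42EP1, RND3, RHOB and RHOC. In BxPC-3 the treated arrays of the first 4 genes lie above the untreated ones, and RHOB and RHOC are higher after PMA on all AsPC-1 arrays.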

How the data were processed

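RNA of 12 cultures was measured on Affymetrix arrays. The deposited values are MAS5 signal intensities per probe set on a linear scale, per the submitters' processing notes, with no version given, and the deposited arrays shared a trimmed mean (99.982 to 99.986, 2% cut at each end). Of 54675 probe sets, 41091 had 1 gene symbol, 1801 several, 11721 none, and 62 were controls. Each gene took the probe set with the highest mean log2 signal, if above the array's 40th percentile on at least 3 arrays. limma 3.58.1 (R 4.3.3, lmFit, eBayes with trend) was fitted to log2(signal + 3) with 4 group means over all 12 arrays, 2-sided. With 200 of 16099 genes changed in simulated BxPC-3 data, it called 23.0% of the 2-fold and 65.7% of the 4-fold changes. The simulation drew normal noise and changed fewer genes than the 937 called in the BxPC-3 data, so these shares describe that setting. A missing call therefore does not show that a gene did not change. The limma p-values measure the spread between passages, pooled over both lines. On their own, 3 arrays against 3 could not go below an exact permutation p of 0.1. Precision is limited by the number of arrays, and MAS5 scaling fixes the mean level of each array.

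The members and lists were chosen with earlier results of these data known. Values on each array are given for members called after PMA, the 6 highest and 5 lowest called between untreated lines, and VCL, ZYX, EZR, TAGLN and CNN1, with FERMT1 and other members added after their values were seen; other pathway genes are named if called after PMA. The labels give treated and untreated arrays of a number 1 passage, so the numbers pair them; their deviations from the group means correlated at 0.411, 0.206 and 0.157 in AsPC-1 and -0.0539, -0.126 and -0.0589 in BxPC-3. Bounds ("at least") set the mean of the bright group against the mean 40th percentile of the dim one. Alternatives were the pseudocount, filter, centring, quantile normalization, trend, probe set choice, passage block, fewer arrays and each array left out. RefSeq windows were matched by symbol.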

Additional observations from a re-analysis of the deposited data

Results flagged for a closer look

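For 3 of the 97 further genes of actin and adhesion control the PMA response differed between the lines past the threshold of the interaction test (limma adjusted p under 0.05). The MARCKSL1 changes were 2.58 in BxPC-3 and -0.01 in AsPC-1, a difference of 2.59 ± 0.40 on the log2 scale (limma adjusted p = 0.017), which was lost without BxPC-3 untreated replicate 1 or any BxPC-3 array after PMA (limma adjusted p from 0.059 to 0.070). The ABI1 changes were 1.73 and 0.29, a difference of 1.44 ± 0.22 (limma adjusted p = 0.017), lost without the same 4 arrays (0.051 to 0.061), with median centring (1.35, limma adjusted p = 0.087) and with probe sets without the marks for shared sequence (1.69, limma adjusted p = 0.5). CDC42EP1 rose by 1.97 in BxPC-3 and had a change of -0.57 without a call in AsPC-1. That difference was 2.54 ± 0.44 (limma adjusted p = 0.025), and kept its call only without AsPC-1 untreated replicates 1 or 3 or AsPC-1 PMA replicate 1 (0.059 to 0.089 in the other 9 fits).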

How the results depend on the processing

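The count of members called after PMA in BxPC-3, 1 as reported, was 0 with eBayes without the trend (4.22% of all genes called), 5 with only the 6 BxPC-3 arrays (PFN1 higher, CNN3, LPP, RDX and TPM1 lower; 22.0% of all genes), and 0 to 3 with 1 array left out (2.02% to 14.9% of all genes). With quantile normalization it was 1, but of TPM1 falling in place of PFN1 rising, as it was without BxPC-3 PMA replicate 1 (6.47% and 2.66% of all genes). In AsPC-1 the count of 1 became 0 with the mean of all probe sets (0.938% of all genes) and 0 with only the 6 arrays (0 of all genes), and ran from 1 to 6 with 1 array left out (0.379% to 19.5%). Between the lines the count of 15 ran from 11 to 16 untreated (25.6% to 40.6% of all genes) and from 13 to 17 after PMA (26.7% to 40.6%) with 1 array left out, and the count of 0 for the difference of responses ran from 0 to 1 (0.0559% to 4.43%). With passage as a block the counts were 3 in BxPC-3 (10.2% of all genes), 2 in AsPC-1 (PXN and FERMT1; 5.62%) and 1 for the difference (FERMT1; 0.783%), LIMA1 lost its call after PMA, and the block changed no other call among the members. The cause of these changes was not tested. Single values changed sign in 3 cases with a call in the reported fit or the alternative, but none was called in both directions. TAGLN between untreated lines (-0.21, limma adjusted p = 0.67) and TPM1 between treated lines (-1.59, limma adjusted p = 0.049) did so with probe sets without marks for shared sequence. RHOC in AsPC-1 (-0.42, limma adjusted p = 0.48) did so with the mean of all probe sets. TAGLN and RHOC were called only as reported, and TPM1 only in the alternative. The TPM1 value rests on a treated BxPC-3 mean of 1.85, under the 40th percentile, so it is no measured size. Another 80 of 2454 gene values changed sign without a call in either setting. Centring arrays on their medians would add 0.13 and 0.22 to the PMA changes in BxPC-3 and AsPC-1, -0.04 and -0.13 to the line differences untreated and after PMA, and -0.09 to the difference of responses. Signals under the 40th percentile, as of CALD1 and FERMT2 in AsPC-1, bound a fold from below only.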
